A study of Mus musculus with 24 samples.

Results

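The 10 genes of cartilage matrix and chondrocytes described here are Sox9, Acan, Col2a1, Col9a1, Col10a1, Comp, Matn3, Has2, Scrg1 and Prg4. They were taken by symbol from a table of 51138 genes, and all 10 were found and passed the filter on low counts. The table holds counts from bulk RNA sequencing of 24 ceramic constructs, each from its own mouse, in 6 groups of 4. Granules of a bone-substitute ceramic, biphasic calcium phosphate (BCP), were placed under the skin and collected after 2 weeks. In the BCP group the granules carried no cells. In BCP+MSC they carried bone marrow mesenchymal stromal cells (MSC) of wild-type C57BL/6J mice, in BCP+MSC+Treg the MSC had been cultured with regulatory T cells (Treg), and in BCP+MSC+RvE1 they had been primed with the lipid mediator resolvin E1 (RvE1) at 10 nM. All hosts were Foxp3-DTR/eGFP mice of both sexes aged 8 to 9 weeks, whose Foxp3-expressing cells carry the receptor for diphtheria toxin. The toxin was given to deplete Treg in hosts of MSC constructs, the group (dep)BCP+MSC. In a further such group, (dep)BCP+MSC+RvE1inj, RvE1 was also injected at the construct every day at 1 µM. An injection without RvE1 is not described for (dep)BCP+MSC, so RvE1 and the injection itself cannot be told apart. No group received BCP alone with the toxin, so the toxin was compared only between MSC-bearing constructs, and the toxin and any batch that went with it cannot be told apart.

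Bone can form through a cartilage template. Mesenchymal cells that express the transcription factor Sox9 become chondrocytes, which lay down type II and type IX collagen and the proteoglycan aggrecan (Acan). Later the chondrocytes enlarge, produce type X collagen (Col10a1) and are replaced by bone. Several genes of the set are not restricted to this route: Has2 makes hyaluronan in many connective tissues, Comp is also a tendon gene, and Prg4 encodes lubricin, the lubricating proteoglycan of joint surfaces and gliding tissues.

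Total counts ranged from 8482701 to 144417743 per library, a 17.0-fold difference, and 7 shallow libraries had at most 18077487. Values are CPM, counts scaled to the library total, adjusted by the TMM method of edgeR. A floor of 3 counts corresponded to 0.0223 CPM in the deepest library and 0.299 CPM in the shallowest, and covers counting error only. Xist was above the Y-linked genes, the female pattern, in 1 BCP library, 3 BCP+MSC libraries, 1 BCP+MSC+Treg library and 2 (dep)BCP+MSC libraries, and in 0 of the libraries of the other 2 groups. The RNA came from whole constructs with seeded and host cells, so fewer cells of a type and less RNA per cell cannot be told apart.

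The set fell into 4 genes counted well in every library and 6 genes close to the floor. Per kilobase of exon, mean levels over the 24 libraries were 4.50 CPM per kb for Sox9, 4.15 CPM per kb for Prg4, 2.65 CPM per kb for Has2 and 2.40 CPM per kb for Comp. These 4 genes lay between the 66.6th and the 74.4th percentile of all genes tested. Scrg1 followed at 0.249 CPM per kb. The remaining members lay between 0.0348 CPM per kb for Acan and 0.0841 CPM per kb for Matn3, with Col2a1 at 0.0402, Col9a1 at 0.0532 and Col10a1 at 0.0618 CPM per kb. Per length, the level of Sox9, the regulator of the chondrocyte programme, was 129 times that of Acan and 112 times that of Col2a1, both matrix genes it is known to activate.

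**Figure D1:**
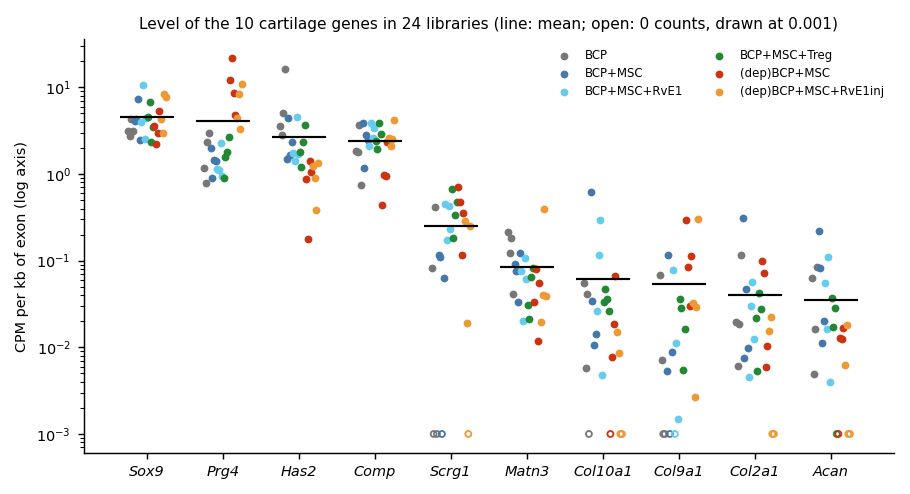
Level of each gene in CPM per kb of exon on a log axis, 1 point per library coloured by group, with the mean as a line and libraries with 0 counts as open points drawn at 0.001. Sox9, Prg4, Has2 and Comp are at 0.176 CPM per kb or more in all 24 libraries, whereas the other 6 genes spread down to 1 or 0 counts.

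In counts, the defining cartilage genes were sparse. Acan had 306 counts summed over the 24 libraries, Col2a1 235, Col9a1 226 and Col10a1 214. Acan was over the floor of 3 counts in 18 libraries, Col2a1 in 13, Col10a1 in 12 and Col9a1 in 11. Matn3, which encodes the cartilage matrix linker matrilin-3, had 299 counts and was over the floor in 18 libraries. Scrg1, a small secreted peptide gene expressed in cartilage and MSC, had 235 counts and was over the floor in 14 libraries. Differences in these 6 genes rest on a few counts per library.

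Across the 6 groups, 2 of the 10 genes differed by the quasi-likelihood F test of edgeR with Benjamini-Hochberg adjustment over all 30564 genes tested. The adjusted p was 0.000215 for Prg4 and 0.0191 for Has2, and among all genes 4.75% passed this test. The call of Has2 was lost in 3 of the alternative fits, among them without BCP replicate 4 (edgeR adjusted p = 0.0942) and without the 7 shallow libraries (0.488), whereas Prg4 passed in both (0.000199 and 0.0160). The other 8 genes had adjusted p-values from 0.195 for Col10a1 to 0.569 for Sox9.

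Prg4 (ENSMUSG00000006014.16, GRCm38 chromosome 1 from 150449412 to 150466165, minus strand) showed the clearest pattern, and it followed the toxin. The (dep)BCP+MSC values were 51.6 CPM in library 1, 93.0 CPM in library 2, 36.7 CPM in the column numbered 4 and 20.6 CPM in the column numbered 5. The 4 injected toxin libraries were at 18.8, 35.6, 14.2 and 46.3 CPM. In BCP+MSC it was at 8.51, 3.88, 6.26 and 6.07 CPM. Every toxin library was above every untreated library: the 12 untreated MSC-bearing libraries ran from 3.85 to 11.5 CPM and the BCP libraries from 3.40 to 12.7 CPM. The share of all genes separated in this way is not given here. In (dep)BCP+MSC against BCP+MSC alone, 9.15% of all genes had no overlap.

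The log2 fold change of Prg4 in (dep)BCP+MSC against BCP+MSC was 3.03 ± 0.50 (SE) (95% interval 2.05 to 4.02, adjusted p = 0.00165 by edgeR; exact permutation test, p = 0.0286, the smallest it can give). With both toxin groups against the 3 untreated MSC-bearing groups the log2 fold change was 2.56 ± 0.30 (SE) (adjusted p = 1.15e-05), and 8 of 8 toxin libraries were above the untreated median. Prg4 was also separated among libraries with the male pattern of sex-linked genes alone, from 14.2 to 46.3 CPM in 6 toxin libraries and from 4.08 to 11.5 CPM in 8 untreated ones. Those 6 included all 4 injected libraries and those 8 all 4 RvE1-primed ones, so the split by sex was uneven over the groups. In the libraries with the female pattern the 2 toxin values were 51.6 and 93.0 CPM, and the 4 untreated values ran from 3.85 to 8.51 CPM.

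By group mean the order of Prg4 levels was (dep)BCP+MSC at 50.5 ± 31.0 CPM, (dep)BCP+MSC+RvE1inj at 28.7 ± 14.9 CPM, BCP at 7.80 ± 4.32 CPM, BCP+MSC+Treg at 7.46 ± 3.17 CPM, BCP+MSC at 6.18 ± 1.89 CPM and BCP+MSC+RvE1 at 5.90 ± 2.60 CPM (SD, n = 4 each). The neighbours in this order overlapped, except for the gap between the lowest toxin group and BCP. Between the toxin groups the log2 difference of injected minus uninjected was -0.81 with a 95% interval from -1.73 to 0.10 (edgeR adjusted p = 0.679). Prg4 has exons that overlap those of Tpr on the opposite strand, and counting took no account of strand but dropped reads in overlaps. Tpr itself had a log2 fold change of 0.49 in the pooled toxin comparison (SE 0.18, edgeR adjusted p = 0.0677).

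**Figure D2:**
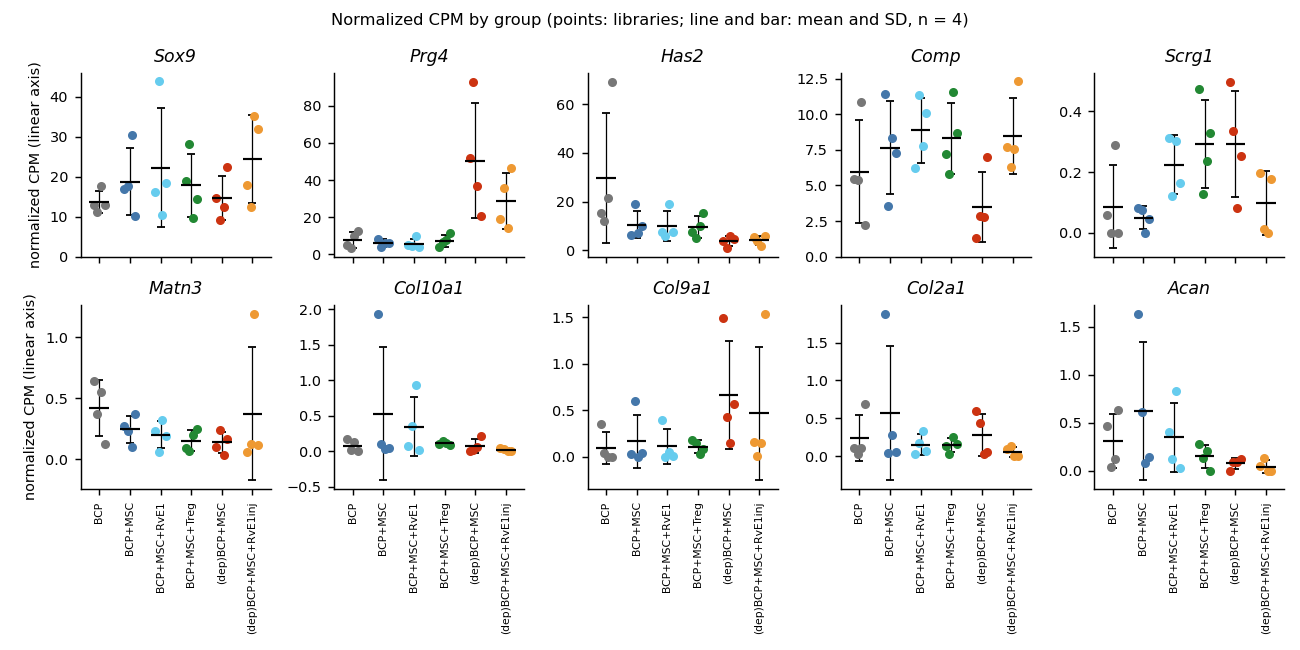
Normalized CPM of each gene by group on linear axes, with 1 point per library and the mean and SD of 4 libraries as a line and bar. The Prg4 points of both toxin groups, 14.2 to 93.0 CPM, stand above all untreated points, and the Has2 points of the BCP group reach 69.4 CPM.

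Has2 (ENSMUSG00000022367.7, chromosome 15 from 56665627 to 56694539, minus strand), which encodes a synthase of the matrix polysaccharide hyaluronan, was highest on ceramic without cells and lowest in the toxin groups. In BCP it was at 15.4, 12.1, 21.5 and 69.4 CPM. In BCP+MSC it was at 6.33, 18.8, 7.03 and 9.98 CPM, in BCP+MSC+RvE1 at 7.41, 5.96, 19.2 and 7.31 CPM, and in BCP+MSC+Treg at 7.62, 5.12, 9.93 and 15.5 CPM. The 3 untreated MSC-bearing groups overlapped fully among themselves, and each overlapped BCP. BCP replicate 4 stood well above the other BCP libraries. Has2 was at 3.69, 0.747, 6.03 and 4.49 CPM in (dep)BCP+MSC, and in the injected toxin group at 5.30, 3.85, 1.64 and 5.74 CPM.

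The pooled toxin comparison gave Has2 a log2 fold change of -1.34 ± 0.40 (SE) (edgeR adjusted p = 0.0307), and 8 of 8 toxin libraries were below the untreated median, with an overlap between 5.12 and 6.03 CPM. This call was lost with any 1 of 5 libraries left out, at adjusted p-values up to 0.0619: BCP+MSC replicate 2, BCP+MSC+RvE1 replicate 3, (dep)BCP+MSC library 1 and (dep)BCP+MSC+RvE1inj replicates 2 and 3. Without the 7 shallow libraries the log2 fold change was -1.19 (edgeR adjusted p = 0.141). Among libraries with the male pattern the toxin values of 1.64 to 6.03 CPM compared with 5.12 to 19.2 CPM in untreated libraries (permutation test, p = 0.00533). As for Prg4, these libraries were uneven over the groups.

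Against BCP, the 3 untreated MSC-bearing groups together had a Has2 log2 fold change of -1.56 ± 0.45 (SE), which did not pass the adjusted threshold (edgeR adjusted p = 0.346; exact permutation test, p = 0.0104). Singly, the log2 fold change was -1.48 for BCP+MSC and -1.64 for BCP+MSC+Treg, and that of BCP+MSC+RvE1 was -1.56. These 3 comparisons share the BCP libraries. Without BCP replicate 4, the pooled log2 fold change was -0.71 (edgeR adjusted p = 0.726). Has2os, the antisense partner with overlapping exons, was at a mean of 1.39 CPM in untreated MSC-bearing constructs and 1.40 CPM in BCP. In toxin-treated constructs Has2os was at a mean of 0.743 CPM, a log2 fold change of -0.85 against the untreated MSC-bearing ones (SE 0.36, edgeR adjusted p = 0.121).

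Markers of other cells were measured in the same pooled toxin comparison, in which 7.86% of all genes had an adjusted p under 0.05 and a log2 fold change beyond 1. Their part in the differences of Prg4 and Has2 was not tested. Of 9 fibroblast genes, 7 passed and were lower, and their summed level ran from 4330 to 16553 CPM in toxin libraries and from 11322 to 40612 CPM in untreated MSC-bearing ones. Of 15 skin and hair follicle genes, 2 passed and were higher, with a median log2 fold change of 1.61 over the list and sums from 7.81 to 504 CPM and from 3.62 to 69.3 CPM. Of 12 Schwann cell genes, which mark the glia of peripheral nerves, 2 passed and were higher, with a median log2 fold change of 0.23 and overlapping sums from 131 to 353 CPM and from 101 to 234 CPM. In (dep)BCP+MSC against BCP+MSC alone, 3 of the skin genes passed and were higher, where 3.14% of all genes passed, with a median of 2.53 over the list and sums from 28.7 to 504 CPM and from 8.00 to 59.1 CPM. In that comparison 5 of the 9 fibroblast genes passed and were lower, with a median of -1.64. Of the 12 Schwann cell genes 2 passed and were higher, with a median of 0.57. The 2 libraries with the highest Prg4, (dep)BCP+MSC libraries 2 and 1, stood apart from the other toxin libraries in the Schwann cell genes. Their Schwann cell sums were 353 and 312 CPM, against 131 to 197 CPM in the other 6, and their skin sums were 37.1 and 504 CPM, against 7.81 to 101 CPM in the other 6. Mmp13, a collagenase of hypertrophic chondrocytes and other cells, was at 21.4 and 29.5 CPM in them and from 300.7 to 637 CPM in the other 6. Prg4 was from 14.2 to 46.3 CPM in those 6, above every untreated library. The fibroblast sums of those 6 ran from 4330 to 16553 CPM, against 11322 to 40612 CPM in untreated MSC-bearing libraries. The part of these cells in the Prg4 level was not tested. None of the skin, fibroblast or Schwann cell genes was at 0 in all toxin libraries. In the pooled toxin comparison 1 of 15 skeletal muscle genes passed and was lower, with a median log2 fold change of 0.06. Of 8 adipocyte genes 1 passed and was higher, with a median of -0.45. Of 8 macrophage genes 0 passed, with a median of -0.14. Muscle sums ran from 6778 to 34021 CPM in toxin libraries and from 337 to 38817 CPM in untreated MSC-bearing ones. Adipocyte sums ran from 1087 to 12033 CPM and from 677 to 15303 CPM.

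Sox9 (ENSMUSG00000000567.5, chromosome 11 from 112782224 to 112787760, plus strand) was counted in every library, from 9.27 to 44.1 CPM, and did not follow the groups. Its means were 13.7 ± 2.76 CPM in BCP, 18.8 ± 8.42 CPM in BCP+MSC, 22.3 ± 14.9 CPM in BCP+MSC+RvE1, 17.8 ± 7.88 CPM in BCP+MSC+Treg, 14.7 ± 5.59 CPM in (dep)BCP+MSC and 24.4 ± 11.0 CPM in (dep)BCP+MSC+RvE1inj (SD, n = 4 each). The highest library was BCP+MSC+RvE1 replicate 2. For the toxin the log2 fold change was -0.05 with a 95% interval from -0.58 to 0.48. For MSC-bearing constructs against BCP it was 0.51 with an interval from -0.18 to 1.2. Sox9 is also expressed by hair follicle and glial cells, and the level here is that of the whole construct.

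Comp (ENSMUSG00000031849.9), which encodes the cartilage oligomeric matrix protein, was lower in (dep)BCP+MSC than in BCP+MSC only by the unadjusted threshold. It was at 1.30, 2.89, 2.81 and 7.01 CPM in (dep)BCP+MSC, and at 11.5, 3.53, 8.31 and 7.28 CPM in BCP+MSC. The log2 fold change was -1.10 ± 0.45 (SE) (edgeR adjusted p = 0.163; exact permutation test, p = 0.0571). With a library left out this log2 fold change ran from -1.69 to -0.84, with edgeR adjusted p-values from 0.0316 to 0.369. The unadjusted call held in 4 of these 8 fits. The injected toxin group was at 7.70, 6.33, 7.54 and 12.3 CPM. All 4 injected libraries were above the median of the uninjected ones, and the log2 fold change was 1.25 ± 0.45 (SE) (edgeR adjusted p = 0.668; exact permutation test, p = 0.0571). The 2 toxin groups thus differed in Comp in the unadjusted test, and their ranges overlapped between 6.33 and 7.01 CPM. Without the 7 shallow libraries this difference was 0.75 and no longer passed the unadjusted threshold.

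Acan and Col10a1, the aggrecan core protein and the collagen of hypertrophic chondrocytes, had negative log2 fold changes in the pooled toxin comparison. These passed the adjusted threshold by DESeq2 but not by edgeR. The promoter sequences of these 2 genes are shown because the genes were also highest in the same libraries. They are the 250 bases upstream of the RefSeq start on GRCm38.p6, plus strand, in lower case with TATAAA in capitals. The Acan stretch is chr7:79052976-79053225 and the Col10a1 stretch is chr10:34389731-34389980.
Acan: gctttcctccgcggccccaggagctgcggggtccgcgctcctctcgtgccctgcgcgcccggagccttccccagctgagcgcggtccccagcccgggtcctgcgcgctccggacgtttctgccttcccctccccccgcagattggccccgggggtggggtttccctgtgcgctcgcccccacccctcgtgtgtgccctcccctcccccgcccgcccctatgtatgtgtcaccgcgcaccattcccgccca
Col10a1: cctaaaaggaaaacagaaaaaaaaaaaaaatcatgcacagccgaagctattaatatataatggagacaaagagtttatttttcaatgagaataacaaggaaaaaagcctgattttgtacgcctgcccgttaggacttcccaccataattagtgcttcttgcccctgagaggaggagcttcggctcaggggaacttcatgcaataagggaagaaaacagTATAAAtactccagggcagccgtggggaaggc

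The Acan promoter held 74.4% G and C and 26 CG pairs, whereas the Col10a1 promoter held 41.6% and 5, against a median of 52.4% over 32851 promoters of the same length. On both strands 3 motifs were searched: TATAAA, the SOX motif ACAATGG and the cyclic AMP response element TGACGTCA. The Col10a1 promoter held 1 match, TATAAA starting at base -32 before the start. The Acan promoter, and those of Matn3 and Col9a1, held 0 matches to all 3. Of all promoters, 12.4% held TATAAA, 3.02% ACAATGG and 1.55% TGACGTCA. The RefSeq table held promoters for these 4 of the 10 genes. The RefSeq start of Acan lies upstream of the start of the GENCODE gene (ENSMUSG00000030607.7, chromosome 7 from 79053483 to 79115099), and the starts coincide for Col10a1 (ENSMUSG00000039462.4, chromosome 10 from 34389981 to 34397085).

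Acan was at 0, 0.0964, 0.0941 and 0.126 CPM in (dep)BCP+MSC and at 0.0467, 0.135, 0 and 0 CPM in (dep)BCP+MSC+RvE1inj. In BCP+MSC it was at 1.64, 0.611, 0.0828 and 0.149 CPM, and in BCP at 0.467, 0.0365, 0.120 and 0.629 CPM. The toxin groups together held 32 counts of Acan against 239 in the 3 untreated MSC-bearing groups, and 8 of 8 toxin libraries were below the untreated median of 0.179 CPM. Of those 8, 3 were shallow libraries with 0 counts and floors of 0.299, 0.224 and 0.178 CPM, so that their place below the median says little. The pooled log2 fold change was -2.12 ± 0.73 (SE) (edgeR adjusted p = 0.0527; exact permutation test, p = 0.0220), which did not pass the adjusted threshold.

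Col10a1 was at 0, 0.0241, 0.0588 and 0.210 CPM in (dep)BCP+MSC and at 0.0467, 0.0269, 0 and 0 CPM in (dep)BCP+MSC+RvE1inj. In BCP+MSC, replicate 1 was at 1.94 CPM with 71 counts, and the other replicates were at 0.107, 0.0331 and 0.0446 CPM. Col10a1 was also low without the toxin, from 0 to 0.175 CPM in BCP and from 0.0822 to 0.146 CPM in BCP+MSC+Treg. The pooled toxin log2 fold change was -2.44 ± 0.87 (SE) (edgeR adjusted p = 0.0615; exact permutation test, p = 0.0227), and -1.45 without BCP+MSC replicate 1 (edgeR adjusted p = 0.204). Of the comparisons with BCP+MSC, that of (dep)BCP+MSC gave -2.59 (edgeR adjusted p = 0.229) and became 0.42 without BCP+MSC replicate 1. Against BCP, Col10a1 in BCP+MSC had a log2 fold change of 2.62 (edgeR adjusted p = 0.888; exact permutation test, p = 0.486), which became -0.39 without that replicate. Exons of Col10a1 overlap exons of Nt5dc1 on the opposite strand, which had a log2 fold change of 0.69 in the pooled toxin comparison (SE 0.15, edgeR adjusted p = 0.00369), opposite in sign to Col10a1.

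BCP+MSC replicate 1 held the highest level of Acan, Col2a1 and Col10a1 among the 24 libraries. It had 60 counts of Acan, 69 of Col2a1 and 71 of Col10a1 at a depth of 38646463 counts. The next library in Acan and in Col10a1 was BCP+MSC+RvE1 replicate 3, with 44 and 49 counts. In Col2a1, which encodes the chief collagen of cartilage, the next were BCP replicate 4 at 0.692 CPM and (dep)BCP+MSC library 1 at 0.598 CPM, on 11 and 6 counts. A joint high level of these 3 genes was found in 1 of the 4 constructs of its group.

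**Figure D3:**
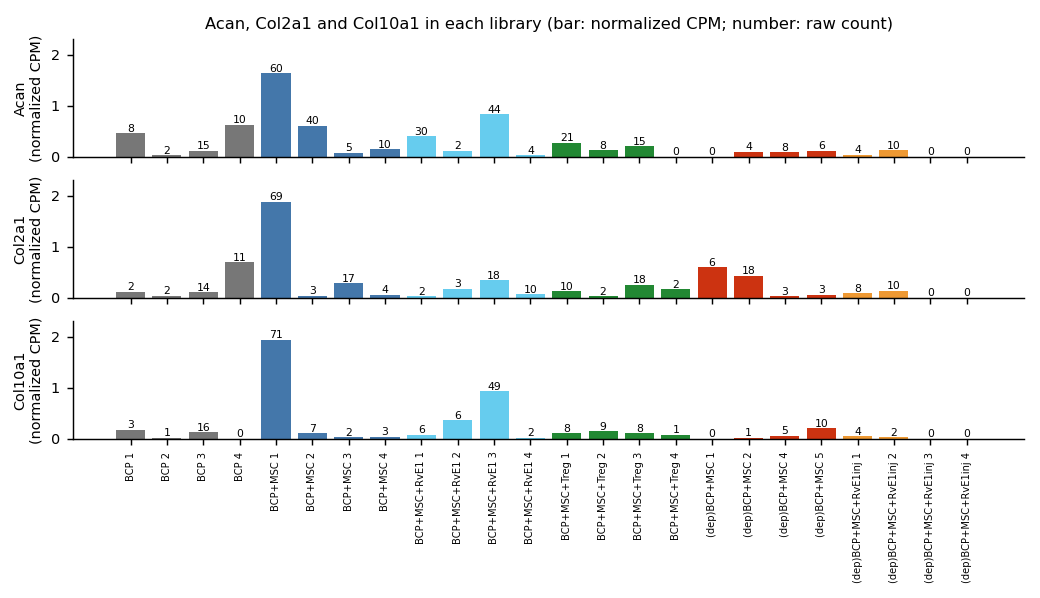
Normalized CPM of Acan, Col2a1 and Col10a1 in each library on linear axes from 0, with the raw count above each bar. BCP+MSC replicate 1 carries the highest bar in all 3 panels with 60, 69 and 71 counts, and the toxin libraries have at most 10 counts of Acan and of Col10a1.

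Across the 24 libraries Acan and Col10a1 had the strongest relation of the 45 pairs of members, with a Pearson r of 0.68 (permutation p = 0.00024, adjusted p = 0.0108) and a Spearman rho of 0.57 (permutation p = 0.00392, adjusted p = 0.176). Without the 2 libraries farthest from the median of Acan r was 0.45. After centring each gene within its groups r was 0.62 (permutation p = 0.00949, adjusted p = 0.214) and 0 of the 45 pairs passed at an adjusted p under 0.05. Sox9 had an r of -0.29 with Acan and -0.33 with Col2a1, with adjusted permutation p-values of 0.445 and 0.368.

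Col2a1 itself showed no difference past either threshold in any comparison. Its group means ran from 0.0570 ± 0.0679 CPM in (dep)BCP+MSC+RvE1inj to 0.567 ± 0.883 CPM in BCP+MSC (SD, n = 4 each). For the toxin the log2 fold change was -0.72 with a 95% interval from -2.23 to 0.78. This interval includes both a large decrease and a moderate increase.

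Col9a1, a chain of the type IX collagen that coats type II fibrils, had the opposite sign under the toxin. It was at 1.5, 0.434, 0.153 and 0.567 CPM in (dep)BCP+MSC and at 0.164, 0.0135, 0.149 and 1.54 CPM in (dep)BCP+MSC+RvE1inj. The 12 untreated MSC-bearing libraries ran from 0 to 0.595 CPM with a median of 0.0506 CPM. The log2 fold change of the pooled toxin comparison was 1.94 ± 0.89 (SE) (edgeR adjusted p = 0.151; exact permutation test, p = 0.0229). Without (dep)BCP+MSC+RvE1inj replicate 4 it was 0.90 (edgeR adjusted p = 0.579). With a library left out it ran from 0.90 to 2.88, with edgeR adjusted p-values from 0.0311 to 0.579. Under the other alternatives it ran from 0.37 to 2.21. The partner chains Col9a2 and Col9a3 had log2 fold changes of 1.31 and 0.57 in the pooled toxin comparison, with edgeR adjusted p-values of 0.265 and 0.353. In each of the 6 groups the library with the highest Col9a1 level was also the one with the highest sum of the 15 skin and hair follicle genes. These were BCP replicate 1 (114 CPM of skin genes), BCP+MSC replicate 2 (59.1 CPM), BCP+MSC+RvE1 replicate 1 (39.4 CPM), BCP+MSC+Treg replicate 1 (69.3 CPM), (dep)BCP+MSC library 1 (504 CPM) and (dep)BCP+MSC+RvE1inj replicate 4 (101 CPM). The part of these cells in the Col9a1 difference was not tested.

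Scrg1 was lower in BCP+MSC than in the RvE1 and Treg groups by the unadjusted threshold only. It was at 0.0818, 0.0763, 0 and 0.0446 CPM in BCP+MSC on 11 counts in all, at 0.313, 0.120, 0.303 and 0.164 CPM in BCP+MSC+RvE1 and at 0.473, 0.129, 0.238 and 0.329 CPM in BCP+MSC+Treg. The groups did not overlap with BCP+MSC in either comparison, which was true of 1.71% and 1.05% of all genes. The log2 fold changes were 2.17 for BCP+MSC+RvE1 (SE 1.01, edgeR adjusted p = 0.924) and 2.50 for BCP+MSC+Treg (SE 1.02, edgeR adjusted p = 1), and the exact permutation test gave its smallest p of 0.0286 in both. The (dep)BCP+MSC group, at 0.0823 to 0.498 CPM, also lay above BCP+MSC, with a log2 fold change of 2.42 (edgeR adjusted p = 0.188), against a share of 9.15% of all genes without overlap. These 3 comparisons share the same 4 BCP+MSC libraries. In BCP, 2 of 4 libraries had 0 counts and replicate 3 had 36.

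For each gene, the log2 fold change with RvE1 priming in untreated hosts was subtracted from that with RvE1 injection in toxin hosts. This difference was tested, and 0 of 10 genes passed the adjusted threshold. Scrg1 had the lowest p, with a log2 difference of -3.57 ± 1.43 (SE, edgeR adjusted p = 1.00). By the same test 4.45% of all genes had an unadjusted p under 0.05.

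Matn3 was highest in BCP, at 0.641, 0.365, 0.546 and 0.126 CPM. The 12 untreated MSC-bearing libraries ran from 0.0602 to 0.371 CPM and were all below the BCP median of 0.456 CPM. The log2 fold change was -1.14 ± 0.61 (SE) (edgeR adjusted p = 0.40; exact permutation test, p = 0.0566), and in BCP+MSC+Treg alone it was -1.60 (edgeR adjusted p = 0.614). The median was 0.134 CPM in (dep)BCP+MSC and 0.120 CPM in (dep)BCP+MSC+RvE1inj, against 0.213 CPM in the untreated MSC-bearing libraries, and 6 of 8 toxin libraries were below the latter. The fitted log2 fold change of the pooled toxin comparison was 0.15, with a 95% interval from -0.91 to 1.22. The highest Matn3 level of all was in (dep)BCP+MSC+RvE1inj replicate 3, at 1.19 CPM on 16 counts in a shallow library.

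Counted over the set, at most 2 of the 10 genes passed the adjusted threshold in any comparison by edgeR. For (dep)BCP+MSC against BCP+MSC 1 of 10 passed the adjusted threshold, an adjusted p under 0.05 and a log2 fold change beyond 1 (Prg4), where 3.14% of all genes did, and 6 passed the unadjusted one, where 13.2% did. Of those 6, Prg4 and Scrg1 were higher and Acan, Col10a1, Comp and Has2 lower. For the pooled toxin comparison 2 of 10 passed the adjusted threshold (7.86% of all genes) and 5 the unadjusted one (15.2%). By DESeq2 the pooled toxin comparison gave 4 past the adjusted threshold (Acan, Col10a1, Has2 and Prg4), and 2603 of all 30564 genes. The median log2 fold change of the 10 genes was -0.96 in the first and -0.32 in the second, against -0.04 and -0.03 over all genes tested. Without BCP+MSC replicate 1 these medians were 0.0070 and -0.05.

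In the remaining 7 comparisons of 2 groups and in MSC-bearing constructs against BCP, 0 of 10 passed the adjusted threshold, by edgeR and by DESeq2, and so did 0% of all genes by edgeR. By DESeq2 between 0 and 98 of all genes passed in these comparisons, the most in BCP+MSC+RvE1 against BCP. At the unadjusted threshold BCP+MSC against BCP gave 2 genes (Col10a1 higher and Has2 lower, 4.32% of all genes). BCP+MSC+RvE1 against BCP gave 1 (Has2, 8.54%), and BCP+MSC+Treg against BCP gave 1 (Has2, 5.85%). Against BCP+MSC, BCP+MSC+RvE1 gave 1 (Scrg1, 2.5%) and BCP+MSC+Treg gave 1 (Scrg1, 2.56%). BCP+MSC+Treg against BCP+MSC+RvE1 gave 0 (2.22%), and (dep)BCP+MSC+RvE1inj against (dep)BCP+MSC gave 1 (Comp, 5.13%). MSC-bearing constructs against BCP gave 1 (Has2, 7.51%). DESeq2 gave the same number as edgeR in each of these 8 comparisons.

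**Figure D4:**
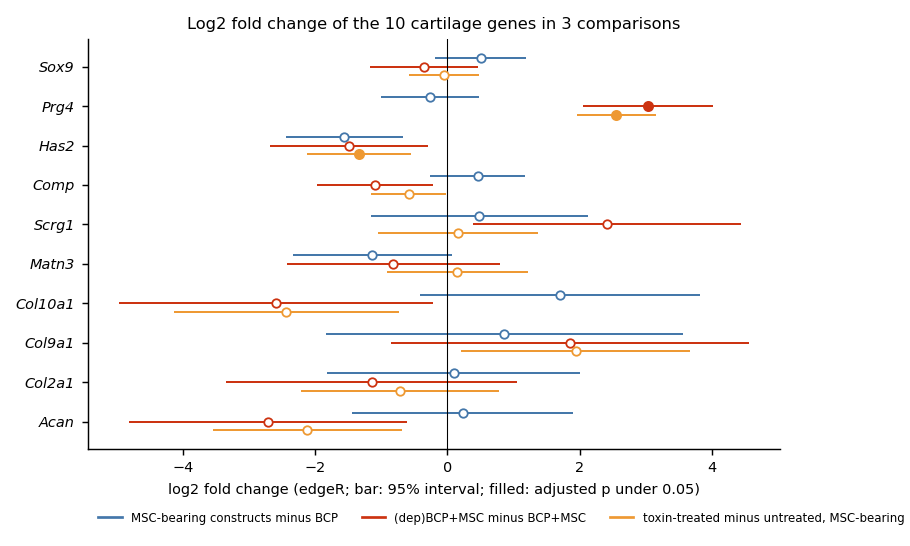
Log2 fold change of each gene by edgeR in 3 comparisons, with 95% intervals as bars and filled points for an adjusted p under 0.05. Prg4 at 3.03 and 2.56 and Has2 at -1.34 carry filled points, and the intervals of the sparse genes span several units.

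Of 34 other cartilage and endochondral genes, 1 was higher and 1 lower past the adjusted threshold in (dep)BCP+MSC against BCP+MSC, where 3.14% of all genes passed, with a median log2 fold change of -0.28 against -0.04 over all genes. Fgfr3, a growth factor receptor that restrains growth plate chondrocytes, rose from 2.45 ± 1.13 CPM to 16.6 ± 14.7 CPM (SD, n = 4 each; log2 fold change 2.74, edgeR adjusted p = 0.00364), without overlap of the groups, as in 9.15% of all genes. Its highest level, 37.7 CPM, was in (dep)BCP+MSC library 1, which also had the highest skin sum. Cilp, a cartilage intermediate layer protein also found in tendon and fibrous tissue, fell from 109 ± 16.0 CPM to 31.0 ± 10.5 CPM (log2 fold change -1.80, edgeR adjusted p = 0.0420). In the pooled toxin comparison, where 7.86% of all genes passed, 1 was higher and 2 lower, the latter being Cilp and Pth1r, the receptor for parathyroid hormone and its related peptide, at -1.0 (edgeR adjusted p = 0.0223). In the comparisons with BCP and between untreated MSC-bearing groups, 0 of 34 passed the adjusted threshold. The median over the 34 ran from -0.26 to 0.12 in these comparisons, against -0.04 to 0.06 over all genes.

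Ihh, the hedgehog ligand of prehypertrophic chondrocytes, stayed between 0 and 0.252 CPM in the MSC-bearing libraries. Sox5 and Sox6, the partners of Sox9, had log2 fold changes of 0.07 and 0.39 in the pooled toxin comparison, with edgeR adjusted p-values of 0.888 and 0.496.

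Among 14 other genes of hyaluronan synthesis, binding and breakdown, 2 were higher and 1 lower past the adjusted threshold in the pooled toxin comparison, where 7.86% of all genes passed. Has3, another hyaluronan synthase, fell from 1.36 ± 0.501 CPM (n = 12) to 0.544 ± 0.244 CPM (n = 8), a log2 fold change of -1.36 (edgeR adjusted p = 0.00192). Has1, the remaining synthase, did not follow the toxin, with a log2 fold change of 0.30 (edgeR adjusted p = 0.734). Stab2 and Lyve1, hyaluronan receptors of sinusoidal and lymphatic endothelium, rose by log2 fold changes of 1.52 and 1.27 (edgeR adjusted p = 0.000525 and 0.0334). Of 5 endothelial genes, 0 passed in the pooled toxin comparison and 4 had negative log2 fold changes, with a median of -0.48. Against BCP, Has1 in the MSC-bearing groups had a log2 fold change of -2.36 (SE 0.53, edgeR adjusted p = 0.203). BCP constructs were at 3.67, 3.78, 46.2 and 41.8 CPM of Has1, and MSC-bearing ones ran from 1.61 to 19.4 CPM.

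Of 9 tendon and fibrocartilage genes, 5 passed the adjusted threshold in the pooled toxin comparison, where 7.86% of all genes passed, all lower (Tnmd, Fmod, Kera, Tnc and Cilp). The other 4 did not pass, among them Scx, a transcription factor of tendon cells, with a log2 fold change of -0.02. Cilp and Chad are in both this list and that of the other cartilage and endochondral genes, so Cilp is counted in both. The median over the 9 was -1.40, beside a median of -1.32 over the 9 fibroblast genes, and the part of fibroblasts in this difference was not tested. Fmod, which encodes the collagen-binding proteoglycan fibromodulin, was at 23.6 ± 5.72 CPM in untreated MSC-bearing constructs (n = 12) and 5.26 ± 2.48 CPM in toxin-treated ones (SD, n = 8; log2 fold change -2.21, edgeR adjusted p = 5.94e-07).

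The genes whose log2 CPM was most like that of a member over the 24 libraries were found for the 4 well-counted genes among 18938 genes. Prg4 was most like Fkbp5 (Pearson r = 0.91), Slc10a6 (0.90) and Crispld2 (0.90). Fkbp5 was at a mean of 43.8 CPM in untreated MSC-bearing constructs, 404 CPM in toxin-treated ones and 47.9 CPM in BCP. After centring within groups these correlations were 0.58, 0.66 and 0.66. Has2 was most like Arsj (0.93), Sfrp1 (0.92) and Nlgn2 (0.92), and after centring 0.89, 0.87 and 0.85. Sox9 was most like Ccdc34 (0.88), Emsy (0.86) and Nudt21 (0.86), and Comp most like Ppil1 (0.84), Cebpe (0.82) and Rbmxl1 (0.82). The libraries differ in depth and cell composition, which all genes of a library share, and these values are descriptions.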

How the data were processed

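Whole constructs were sequenced as stranded mRNA libraries. The authors aligned reads with HISAT2 2.0.5 and counted them per gene with featureCounts 1.5.2 on GENCODE M13; the deposited values are raw counts, made without regard to strand and without reads in overlapping genes or with several alignments. All 24 columns were used. The recorded counting command also named 4 alignment files that have no column. In (dep)BCP+MSC the columns numbered 4 and 5 match no replicate number of the labels and entered without one.

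Genes with at least 10 counts in total (30564) entered edgeR 4.0.16 (R 4.3.3): TMM scaling, 1 robust quasi-likelihood fit over 6 groups without covariates, and Benjamini-Hochberg adjustment over all genes. Genes were called at an adjusted p under 0.05, or at an unadjusted p under 0.05, with a log2 fold change beyond 1. Fold changes are model estimates. For single genes an exact two-sided permutation test was run on log2 CPM (prior count 2; smallest p 0.0286), and relations between genes were tested with 100000 resamples. The fit, tested on simulated counts of 29960 genes for (dep)BCP+MSC against BCP+MSC, called 86 of 200 changed genes and 1 unchanged gene. These calls used the adjusted p alone. The changed genes were drawn from well-counted genes at a single assumed spread, so the result does not cover the genes close to the floor.

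The 10 genes and the lists of other cartilage, hyaluronan, tendon, osteoblast, fibroblast, skin, endothelial, Schwann cell, skeletal muscle, adipocyte and macrophage genes were chosen with earlier results of these data known. Named are the 10 genes, cartilage and hyaluronan list genes past the adjusted threshold (at most 4 a comparison, smallest p first) or otherwise the 3 with the smallest p, and the 3 genes most like each gene with a median count of at least 10; Ihh, Mmp13, Has1, Sox5, Sox6, Col9a2, Col9a3, the overlapping genes and the tendon and osteoblast genes were named after their values were seen. Positions come from GENCODE M21 on GRCm38 and promoters from RefSeq on GRCm38.p6. Same-numbered libraries deviated together (r over 0.1 in 4 of 4 pairs) in BCP+MSC+RvE1 with BCP+MSC+Treg only, and in 3 of 4, 1 of 4 or 0 of 2 pairs elsewhere; the labels name no shared litter or day. Alternatives were RLE scaling, the filterByExpr filter, no filter, DESeq2 1.42.0, a replicate block, a covariate for sex, only the 2 groups compared, each library left out, and, chosen after seeing the data, without the 7 shallow libraries of at most 18077487 counts. Figures were drawn with matplotlib 3.10.9.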

Additional observations from a re-analysis of the deposited data

Results flagged for a closer look

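Of 60 sets of 4 libraries (10 genes in 6 groups), 1 held a library far from the others of its group on the log2 CPM scale, where chance gives about 1 in 20. In (dep)BCP+MSC, Acan was at 0 CPM in library 1 and between 0.0941 and 0.126 CPM in the other 3. Library 1 was the shallowest of all, with 8482701 counts and a floor of 0.299 CPM, and the other 3 libraries lay below that floor. On the linear CPM scale, a scale added after the data were seen, that set was not among those that stood apart. There 11 of the 60 sets did, each by its highest library, among them Col10a1 and Col2a1 in BCP+MSC replicate 1 (1.94 and 1.88 CPM), Matn3 in (dep)BCP+MSC+RvE1inj replicate 3 (1.19 CPM) and Has2 in BCP replicate 4 (69.4 CPM).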

How the results depend on the processing

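Prg4 kept its direction and its adjusted call in (dep)BCP+MSC against BCP+MSC in 16 of 16 alternatives (adjusted p from 7.81e-08 to 0.0229) and in the pooled toxin comparison in 27 of 27 (1.00e-13 to 0.00106). The adjusted count was 0 in the other comparisons under every alternative. In (dep)BCP+MSC against BCP+MSC it was 1 to 2 with a library left out. The pooled toxin comparison, with 2 genes, gave 4 by DESeq2 (Acan, Col10a1, Has2 and Prg4), 1 without the 7 shallow libraries, and 1 to 4 with a library left out: 1 without BCP+MSC+RvE1 replicate 3, (dep)BCP+MSC library 1 or (dep)BCP+MSC+RvE1inj replicate 3, and 4 without BCP+MSC replicate 3 or 4 or BCP+MSC+RvE1 replicate 4. The test over 6 groups, with 2 genes, gave 1 under the block, 1 without the shallow libraries, and 1 to 2 with a library left out (1 without BCP replicate 4), the gene lost being Has2 each time.

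Unadjusted counts moved more. BCP+MSC against BCP (2) gave 0 with a covariate for sex, 1 without the shallow libraries, 1 with only these groups, and 0 to 2 with a library left out. BCP+MSC+RvE1 against BCP (1) gave 0 without the shallow libraries and 0 to 3 with a library left out, and BCP+MSC+Treg against BCP (1) gave 2 with only these groups and 1 to 2. Against BCP+MSC, BCP+MSC+RvE1 (1) gave 0 to 2 and BCP+MSC+Treg (1) gave 0 to 3 with a library left out. For (dep)BCP+MSC against BCP+MSC (6) the count was 3 without the shallow libraries and 2 to 6 with a library left out, lowest without (dep)BCP+MSC library 2. For (dep)BCP+MSC+RvE1inj against (dep)BCP+MSC (1) it was 0 and 0 to 3, for the pooled toxin comparison (5) 3 and 3 to 5, and for MSC-bearing constructs against BCP (1) 1 to 2 with a library left out.

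The median log2 fold change of the 10 genes ran from -0.46 to 0.69 in BCP+MSC against BCP and from -1.08 to 0.0070 in (dep)BCP+MSC against BCP+MSC with a library left out, the extremes -0.46 and 0.0070 being without BCP+MSC replicate 1. Without that library the log2 fold change of Col10a1 reversed: with a library left out it ran from -0.39 to 3.16 in the former and from -3.69 to 0.42 in the latter. In the pooled toxin comparison (-0.32) the median was -0.58 without the shallow libraries and ran from -0.59 to -0.05 with a library left out. The cause was not tested.

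The replicate block left out the 2 libraries without a number. With it the unadjusted count was 0 in BCP+MSC against BCP, 0 in BCP+MSC+RvE1 against BCP+MSC and 2 in (dep)BCP+MSC+RvE1inj against (dep)BCP+MSC. The median log2 fold change was -0.33 in (dep)BCP+MSC against BCP+MSC, 0.0065 in the pooled toxin comparison and 0.065 in (dep)BCP+MSC+RvE1inj against (dep)BCP+MSC. In BCP+MSC+Treg against BCP+MSC+RvE1, where the numbers pair, both counts remained 0. Depth limits Acan, Col2a1, Col9a1, Col10a1, Matn3 and Scrg1.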

Other observations

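Osteoblast genes were measured beside the cartilage genes. Of 9 genes, 2 were lower past the adjusted threshold in the pooled toxin comparison, where 7.86% of all genes passed: Ibsp and Dmp1, both of mineralized bone matrix. Over the list 5 log2 fold changes were negative and 4 positive, with a median of -0.31. Phex was higher past the unadjusted threshold only. Ibsp was at 0.545, 0.305, 0.497 and 15.4 CPM in BCP+MSC replicates 1 to 4 and had 3 counts in 1 BCP library and 0 in the other 3. The highest Ibsp level, in BCP+MSC replicate 4, and the highest levels of Acan, Col2a1 and Col10a1, in replicate 1, were thus in different constructs of the same group. The next Ibsp level, 7.55 CPM, was in BCP+MSC+RvE1 replicate 3, which was second in Acan and Col10a1. In toxin libraries Ibsp ran from 0 to 0.241 CPM (log2 fold change -4.10, SE 0.88, edgeR adjusted p = 0.00378), and Dmp1 from 0 to 0.431 CPM against 0.411 to 1.36 CPM in untreated MSC-bearing constructs (log2 fold change -1.66, SE 0.36, edgeR adjusted p = 0.00308).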
